A study of Mus musculus with 2 samples.

Results

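Mitosis-leaning cycling cells were 298 of the 5246 deposited skin innate lymphoid cells (ILCs), which are lymphocytes without rearranged antigen receptors. The members were chosen by measured values, through unique molecular identifiers (UMIs), each of which stands for 1 captured RNA molecule. A kept cell had at most 10% of its UMIs on mitochondrial genes, and it was called cycling at 3 or more UMIs summed over Mki67, Top2a and Birc5. A cycling cell was a member if its mitosis sum (Ccnb1, Cdc20, Cenpe, Cenpf, Plk1 and Ube2c) was at least as large as its S phase sum (Mcm3, Mcm5, Mcm6, Rrm2, Tyms and Uhrf1). The remaining cycling cells are called S-phase-leaning here, and cells with no UMI of Mki67, Top2a or Birc5 are called non-cycling. Because the cells were chosen by their cell cycle RNA, higher levels of other cell cycle genes follow in part from the choice. Every contrast with non-cycling or S-phase-leaning cells is therefore a description.

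The cells came from the skin of C57/BL6 mice of 2 ages, postnatal day 1 and postnatal day 14, with 1 library per age and no treatment or genetic change in the labels. Skin was digested with Collagenase A, cells that were CD45+, lineage-negative and Thy1.2+ were sorted as ILCs, and libraries were made with the Chromium 5' kit. The sources used here do not give how many mice were pooled for a library. The table holds both libraries, and cell names end in 1 or 2, which no label ties to an age. Values are therefore given for cell set 1 and cell set 2, each without a replicate, the ages are not compared, and no test between groups could be made. A level is in CPM, the UMIs of a gene over the cells of a group for each 1000000 UMIs of that group, and the bracketed ranges are 95% intervals of counting error only.

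Cells enter mitosis when cyclin B bound to the kinase Cdk1 becomes active, and polo-like and Aurora kinases then drive assembly of the spindle. The spindle checkpoint holds anaphase back until every chromosome is attached at its kinetochore. The anaphase promoting complex, activated by Cdc20 and charged by the ubiquitin enzymes Ube2c and Ube2s, then marks cyclin B and securin for destruction. Many of these genes share a promoter element known as the cell cycle genes homology region (CHR), which the DREAM and MuvB complexes bind. Tissue ILCs are known to be maintained largely by division within the tissue.

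Promoters of 7 mitotic genes that the results below turn on are shown to let the shared letters be seen. Each runs from 150 bases before to 30 bases after the start of transcription, 5' to 3' on the gene's strand, from RefSeq with build GRCm38.p6. Capitals mark the CHR letters TTTGAA or TTCGAA and the CCAAT box, each on either strand. They were Ccnb2 at chr9:70421525-70421704 on the minus strand, Cdk1 at chr10:69352883-69353062 on the minus strand, Hmmr at chr11:40733408-40733587 on the minus strand and Cdca8 at chr4:124936888-124937067 on the minus strand, followed by 3 genes of the mitosis sum. Those were Cdc20 at chr4:118437314-118437493 on the minus strand, Ube2c at chr2:164769779-164769958 on the plus strand and Ccnb1 at chr13:100786457-100786636 on the minus strand.
Ccnb2: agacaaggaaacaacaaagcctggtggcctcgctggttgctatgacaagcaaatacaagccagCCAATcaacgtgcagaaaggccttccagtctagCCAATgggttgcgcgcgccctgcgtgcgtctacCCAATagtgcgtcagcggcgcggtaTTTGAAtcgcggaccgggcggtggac
Cdk1: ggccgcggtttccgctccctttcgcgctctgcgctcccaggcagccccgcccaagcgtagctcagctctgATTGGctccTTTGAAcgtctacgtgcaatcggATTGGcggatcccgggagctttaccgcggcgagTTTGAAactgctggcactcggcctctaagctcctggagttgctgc
Hmmr: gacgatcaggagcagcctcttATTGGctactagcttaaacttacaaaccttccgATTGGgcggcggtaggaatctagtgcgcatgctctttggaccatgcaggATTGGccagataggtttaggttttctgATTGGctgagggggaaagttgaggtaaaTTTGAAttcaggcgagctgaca
Cdca8: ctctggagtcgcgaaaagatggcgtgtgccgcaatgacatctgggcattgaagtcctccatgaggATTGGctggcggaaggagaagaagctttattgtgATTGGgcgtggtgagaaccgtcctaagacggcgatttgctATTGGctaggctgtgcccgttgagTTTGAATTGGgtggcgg
Cdc20: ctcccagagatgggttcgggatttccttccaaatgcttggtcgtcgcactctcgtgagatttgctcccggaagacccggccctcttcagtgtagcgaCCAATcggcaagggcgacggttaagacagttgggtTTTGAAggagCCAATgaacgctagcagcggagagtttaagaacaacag
Ube2c: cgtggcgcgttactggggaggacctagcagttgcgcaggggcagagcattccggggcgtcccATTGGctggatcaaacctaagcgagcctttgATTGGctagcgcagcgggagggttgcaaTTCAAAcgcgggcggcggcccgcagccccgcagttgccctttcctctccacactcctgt
Ccnb1: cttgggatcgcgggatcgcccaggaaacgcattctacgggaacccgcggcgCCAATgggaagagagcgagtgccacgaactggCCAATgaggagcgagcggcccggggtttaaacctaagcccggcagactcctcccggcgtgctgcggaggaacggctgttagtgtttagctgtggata
Counting the first transcribed base as 1, the CHR letters began at 5 in Ccnb2, at 9 in Hmmr, at 14 in Cdca8, at -18 in Cdc20, at -29 in Ube2c and at -71 and -15 in Cdk1. In Cdca8 the CHR letters overlap a CCAAT box read on the other strand. The Ccnb1 window held 2 CCAAT boxes and no CHR letters. Windows not shown differed as well. Those of Cenpf, Top2a, Mki67 and Cdkn3 held both kinds of letters. The windows of Plk1, Cenpe and Nek2 held CCAAT boxes without CHR letters, and those of Nusap1 and Birc5 held neither.

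Members made up a larger share of cell set 1 than of cell set 2. In set 1, 204 of 1441 kept cells were members, 14.2% (12.4 to 16.1%, exact Clopper-Pearson interval). In set 2, 94 of 3508 kept cells were, 2.68% (2.17 to 3.27%). Among cycling cells the shares were nearer, 45.2% of 451 in set 1 (40.6 to 49.96%) and 53.1% of 177 in set 2 (45.5 to 60.6%). Without the cells with both sums at 0, described below, the share of cycling cells in set 2 was 45.8% beside 43.6% in set 1. Depth differed between the sets and enters the rule, which asks for a fixed number of UMIs. In an alternative, cells with at least 4000 UMIs were thinned to 4000 before the rule was applied, and cells with fewer were left out. Members were then 12.2% of the kept cells of set 1 and 2.47% of those of set 2. They were 54.4% and 49.6% of the cycling cells, so the order of the latter shares turned.

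Members carried more UMIs than non-cycling cells of the same set. The median was 14884 UMIs and 3314 genes per member in set 1, beside 8865 UMIs and 2359 genes in the 734 non-cycling cells. In set 2 it was 8728 UMIs and 2430 genes, beside 4653 and 1497 in the 2923 non-cycling cells. S-phase-leaning cells were of similar depth, with medians of 16080 and 9086 UMIs. Ribosomal protein genes took a median of 26.1% and 22.7% of a member's UMIs and 32.7% and 29.7% of a non-cycling cell's. Mitochondrial genes took 3.21% and 1.96% of a member's. Of the members, 30 in set 1 and 37 in set 2 lay above 2 times the median UMIs of their set. No doublet caller was run on cells this deep, so doublets among them were not identified. The summed UMIs behind each level were 3087409 for the members of set 1 and 872863 for those of set 2, with 4 barcodes occurring in both sets, 1 of them a member of set 1.

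The mitosis sum ranged widely within the members. Its median was 14 UMIs in set 1 (0 to 79) and 6 in set 2 (0 to 31), and the median S phase sums were 4 and 1. A sum of 10 or more was reached by 139 of the 204 members of set 1 and by 37 of the 94 of set 2. The S phase sum was 5 or more in 93 and 18 members, so leaning to mitosis did not mean that replication transcripts were absent. Near the border, 11 members of set 1 and 9 of set 2 were inside by 1 UMI, 23 and 31 had equal sums, and 20 and 7 cycling cells missed by 1 UMI. At the other threshold, 16 members of each set had exactly 3 UMIs of Mki67, Top2a and Birc5, and 75 and 86 kept cells had 2.

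**Figure D1:**
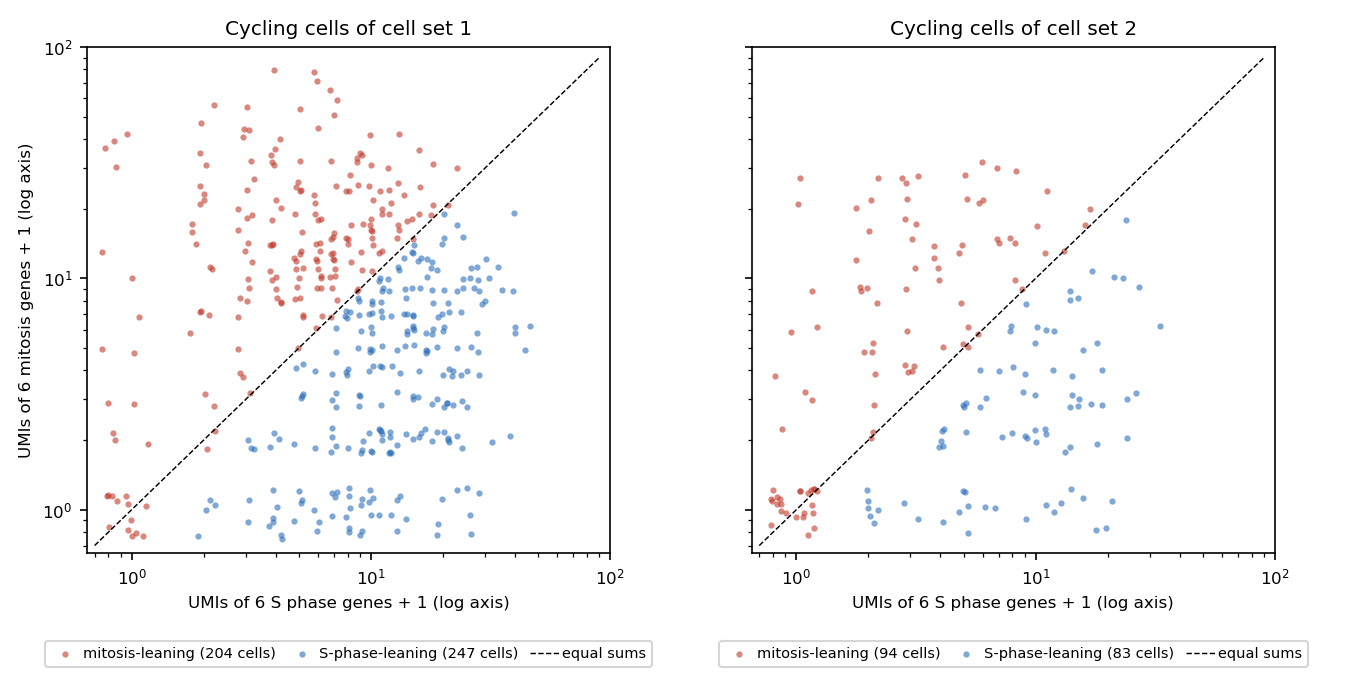
Mitosis sum + 1 (vertical axis, UMIs per cell) against S phase sum + 1 (horizontal axis, UMIs per cell), both log axes, for every cycling cell, with 1 panel per cell set and points spread slightly so that equal sums do not hide each other. Members lie on or above the line of equal sums and S-phase-leaning cells below it, the members of set 1 reaching a mitosis sum of 79 and those of set 2 one of 31 UMIs, and the cells with both sums at 0 form the cluster at the lower left.

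Of the genes that chose the cells, Ube2c gave the most UMIs to the mitosis sum, with a UMI in 88.2% of members in set 1 and 64.9% in set 2. It stood at 519 and 532 CPM in members, 85.4 and 78.8 in S-phase-leaning and 7.98 and 1.79 in non-cycling cells. Cenpf, a kinetochore protein, stood at 263 and 247 CPM in members, and Cenpe, a kinetochore motor, at 158 and 80.2. These levels were set by the rule and support nothing by themselves. Cdc20 stood at 119 and 52.7 CPM, Ccnb1, the B-type cyclin, at 61.9 and 28.6, and Plk1, the polo-like kinase, at 29.2 and 19.5. A UMI of Plk1 was found in only 25% and 12.8% of members. Top2a, the topoisomerase that untangles chromosomes, stood at 724 and 763 CPM and Mki67, which coats mitotic chromosomes, at 517 and 511.

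For some members the data went against the name. Both sums were 0, which the rule counts as a tie, in 13 members of set 1 (6.37%) and in 24 of set 2 (25.5%). Most of these cells entered through Top2a, with a UMI in 12 of the 13 and 22 of the 24, while Birc5 had 1 UMI in set 1 and 0 in set 2. Some genes that the rule did not use were also low in them. Spindle assembly factors summed to 97.9 and 52.6 CPM there, near the 56.0 and 44.8 CPM of non-cycling cells. Members with a mitosis sum of 1 to 9 stood at 759 and 671 CPM and those with 10 or more at 1472 and 1623. Hmgb2, a chromatin protein of dividing cells, stood at 908 and 964 CPM in the cells with both sums at 0 and at 4386 and 4271 in the other members. The 13 cells of set 1 were above non-cycling cells in other lists. DNA replication genes summed to 1192 CPM in them and 787 in non-cycling cells, and clustered histone genes to 1254 and 821. For the 24 cells of set 2 these sums were 660.2 against 549.9 and 1081 against 1314. The main counts of set 2 are given with and without these cells.

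Beyond the 15 rule genes, members differed from non-cycling cells in few genes. Among 8424 genes with at least 50 UMIs over both groups, 257 (3.05%) were at least 2-fold higher in members of set 1 and 35 (0.415%) at least 2-fold lower, on the scale of CPM + 10. In set 2, 227 of 8975 (2.53%) were higher and 45 (0.501%) lower. Without the cells with both sums at 0, the counts in set 2 were 296 higher and 75 lower. Scaled by trimmed means (TMM), which moved the median gene of set 2 from 0.076 to -0.04 (log2), they were 190 and 72. Of the genes with 50 UMIs in both comparisons, 157 were higher in both sets, 83.1% of the 189 of set 1 and 70.1% of the 224 of set 2. Far fewer lower genes were shared, 6, which is 21.4% of 28 and 17.6% of 34. Members were chosen in each set by the same rule, so the shared higher genes are no independent repeat of each other.

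**Figure D2:**
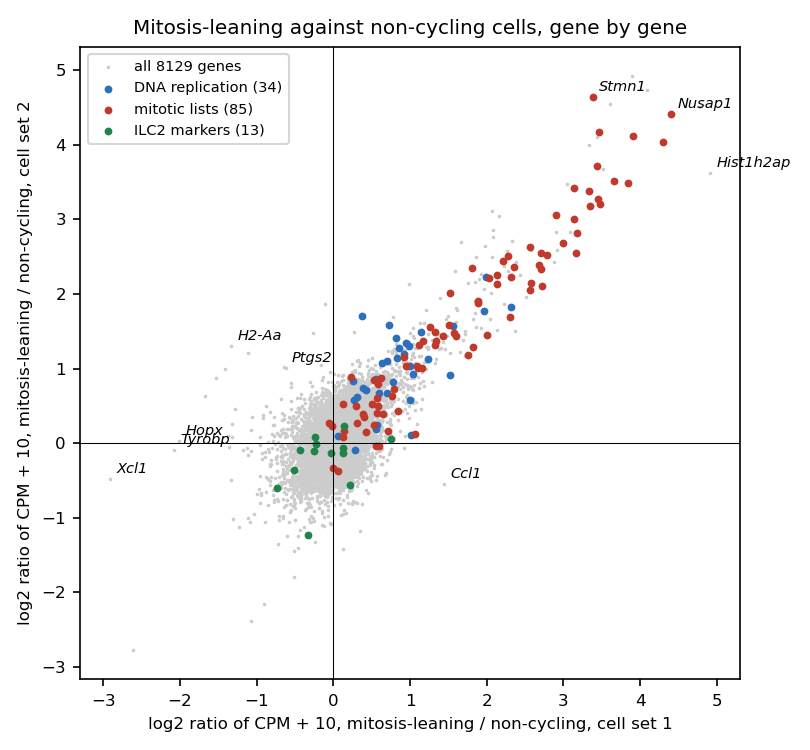
Log2 ratio of mitosis-leaning to non-cycling cells (CPM + 10) in set 2 (vertical axis) against set 1 (horizontal axis), 1 point per gene with at least 50 UMIs in both comparisons, the rule genes left out. Mitotic genes lie to the upper right, most genes lie near 0 on both axes, and 157 genes were at least 2-fold higher in both sets.

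Kinases and cyclins that start mitosis were higher in members than in non-cycling cells of both sets. The counts for gene lists take genes with at least 20 UMIs over both groups, of which 2.71% in the whole table were 2-fold higher in set 1 and 2.7% in set 2. A gene nearly absent from non-cycling cells passes that minimum only through the members, so these counts are a description, and genes under it are not in them. Of the mitotic kinases, cyclins and phosphatases, 15 of 18 were 2-fold higher in set 1 (median log2 ratio 1.77, all genes 0.043) and 13 of 16 in set 2 (1.85, all genes 0.06). Without the cells with both sums at 0 the median in set 2 was 2.10. Ccnb2, the second B-type cyclin, stood at 205 CPM (189 to 221) in members of set 1 and 182 CPM (155 to 213) in those of set 2. In non-cycling cells it stood at 4.37 CPM (2.93 to 6.27) and 1.07 CPM (0.600 to 1.77), so the intervals lay far apart. It was 46.9-fold (32.3 to 70.6) and 169.8-fold (99.9 to 311) higher. Cdk1, the partner of cyclin B, stood at 136 and 147 CPM in members and 3.46 and 2.003 in non-cycling cells. A UMI of Ccnb2 was found in 76.5% and 55.3% of members (49.8% and 37.9% after thinning to 4000 UMIs) and in 2.32% and 0.342% of non-cycling cells (0.583% and 0.464% thinned). Ccna2, the A-type cyclin that acts from S phase into mitosis, stood at 108 and 82.5 CPM against 0.602 and 0.0715. Cks1b, a small subunit of Cdk complexes, was 18.5-fold (14.9 to 23.4) and 46.9-fold (36.3 to 61.0) higher.

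Spindle assembly genes were higher in members than in non-cycling cells. Summed over all 17 listed outside the rule, with no minimum, they stood at 1281 and 1009 CPM in members and 56.0 and 44.8 in non-cycling cells. Of those that passed the minimum, 17 of 17 were 2-fold higher in set 1 and 14 of 14 in set 2, with median log2 ratios of 2.30 and 2.36 (2.62 in set 2 without the cells with both sums at 0). Nusap1, which bundles spindle microtubules, stood at 278 and 241 CPM in members and 3.61 and 1.79 in non-cycling cells. Tpx2, which activates Aurora A on the spindle, stood at 170.0 and 125 against 4.22 and 1.86. Hmmr, a spindle-pole protein, stood at 144 CPM (131 to 159) and 104 CPM (83.9 to 128) in members against 0.753 CPM (0.245 to 1.76) and 0.215 CPM (0.0442 to 0.627). Non-cycling cells thus held almost none of these transcripts in either set. Mitotic kinesins, the motors of the spindle, were 2-fold higher for 11 of 12 genes in set 1 and 10 of 10 in set 2. Kif11, which pushes the spindle poles apart, stood at 132 and 111 CPM against 3.01 and 2.503. Against S-phase-leaning cells, the ratio of summed kinesins was 1.40 (1.32 to 1.48) in set 1 and 0.966 (0.844 to 1.11) in set 2. The latter includes the cells with both sums at 0, in which kinesins summed to 58.4 CPM. Members of set 2 with a mitosis sum of 1 to 9 stood at 403 CPM and those with 10 or more at 745. S-phase-leaning cells of set 2 stood at 518 CPM.

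Kinetochore, checkpoint and passenger genes were higher than in non-cycling cells as well. Of the centromere and kinetochore genes, 21 of 28 and 15 of 24 were 2-fold higher, and of the spindle checkpoint genes 8 of 11 and 8 of 10. Bub1, a checkpoint kinase, stood at 87.5 and 51.6 CPM in members and 0.904 and 0.501 in non-cycling cells. Cdca8 (borealin), a subunit of the chromosomal passenger complex, stood at 252 CPM (235 to 271) and 195 CPM (167 to 226) against 3.31 CPM (2.08 to 5.02) and 2.503 CPM (1.74 to 3.48). Both genes were an order of magnitude or more apart between the groups in each set. All 3 passenger genes outside the rule (Aurkb, Incenp and Cdca8) were 2-fold higher in both sets. For cytokinesis, the final split of the cell, the counts were 9 of 12 and 8 of 11. Prc1, which bundles the central spindle, was 17.0-fold (13.6 to 21.4) and 16.7-fold (13.2 to 21.1) higher. For condensin, cohesin and the chromosome scaffold they were 13 of 17 and 13 of 17, with Smc2, a condensin subunit, at 351 and 285 CPM against 25.9 and 18.5. Against S-phase-leaning cells, sums were 1.29 and 1.12 times as high for kinetochore genes and 1.31 and 1.06 times for checkpoint genes. For passenger genes the ratios were 1.48 and 1.37, for cytokinesis 1.14 and 0.911, and for condensin, cohesin and the scaffold 1.02 and 0.887. In set 2, all members together thus stood below S-phase-leaning cells for cytokinesis (0.863 to 0.961). The same held for condensin, cohesin and the scaffold (0.829 to 0.949). These sums include the cells with both sums at 0. In those cells of set 2, cytokinesis genes summed to 1063 CPM and checkpoint genes to 111. Members with a mitosis sum of 1 to 9 stood at 2705 and 389 CPM, and those with 10 or more at 3969 and 676. S-phase-leaning cells of set 2 stood at 3286 and 447 CPM.

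Genes of the anaphase promoting complex differed less. Outside the rule genes, 5 of 18 of its subunits and regulators were 2-fold higher in set 1 and 5 of 17 in set 2, with median log2 ratios of 0.53 and 0.39. Ube2s, which lengthens ubiquitin chains on its targets, stood at 779.6 and 686 CPM in members and already at 318 and 226 in non-cycling cells. Fbxo5 (Emi1), an inhibitor of the complex, stood at 49.6 and 28.6 CPM in members, 2.11 and 1.93 in non-cycling and 70.6 and 71.7 in S-phase-leaning cells. Members thus held less of this inhibitor's RNA than S-phase-leaning cells did.

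**Figure D3:**
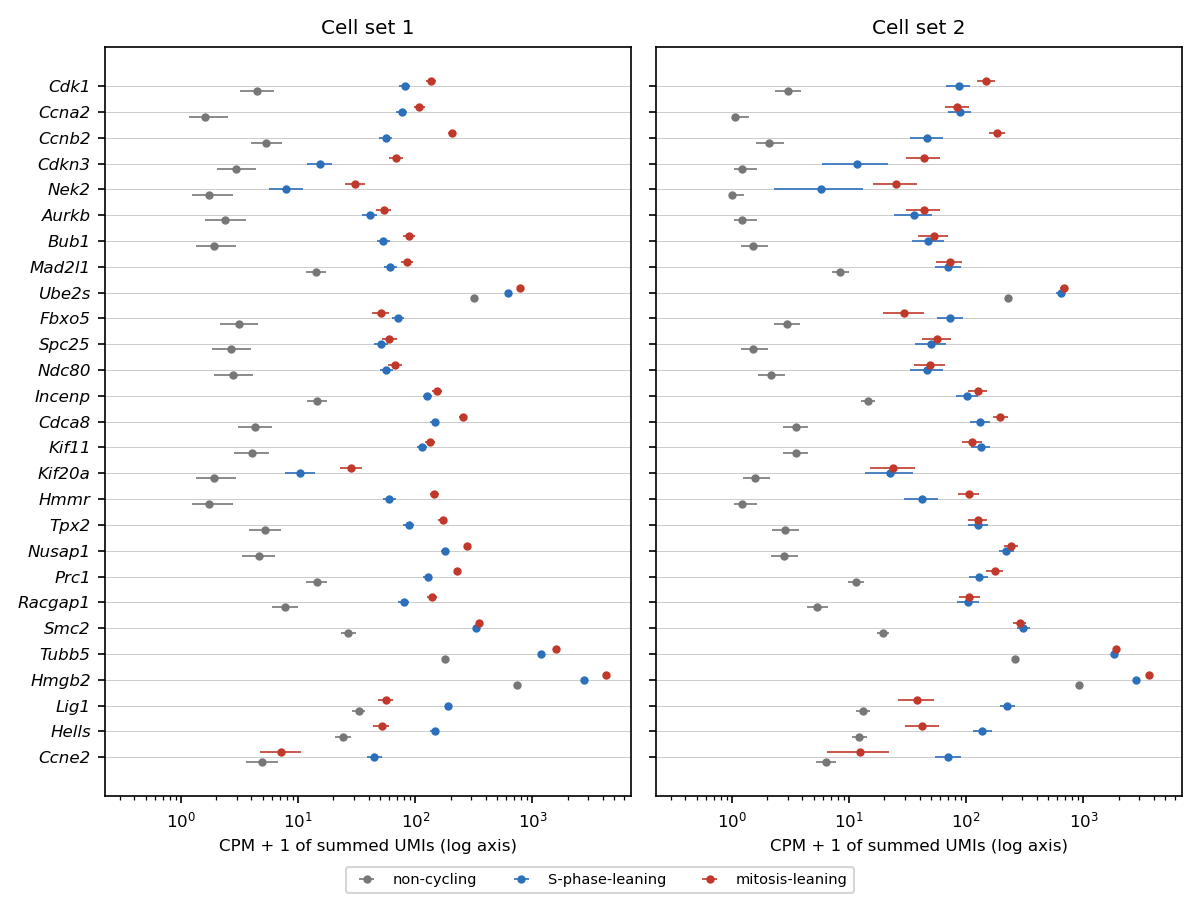
CPM + 1 (log axis) of mitotic and S phase genes in mitosis-leaning, S-phase-leaning and non-cycling cells of each cell set, with bars for the 95% interval of counting error. For most of the mitotic genes, members and S-phase-leaning cells both lie far above non-cycling cells, while Ube2s is already high in non-cycling cells. Members lie above S-phase-leaning cells for Ccnb2 and Hmmr in both sets, and Lig1, Hells and Ccne2 show the opposite order.

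Promoters with CHR letters near the start were common among these genes. Of 130 RefSeq promoters of the 9 mitotic lists, which matched 117 of 141 genes by symbol, 58 (44.6%) held TTTGAA or TTCGAA on either strand between 50 bases before and 50 after the start. Among all 16984 promoters of genes in the table the share was 3.89%, and among DNA replication genes 4.17%. CCAAT on either strand anywhere in the 300-base window was found in 64.6% of mitotic, 58.3% of replication and 37.1% of all promoters. E2F letters (TTTGGCGC, TTTCCCGC, TTTGCCGC or TTTCGCGC) were found in 10.8%, 37.5% and 3.36%. The mitotic lists were thus richer in CHR letters and the replication list in E2F letters. A match of letters is a description and not a site of binding.

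**Figure D4:**
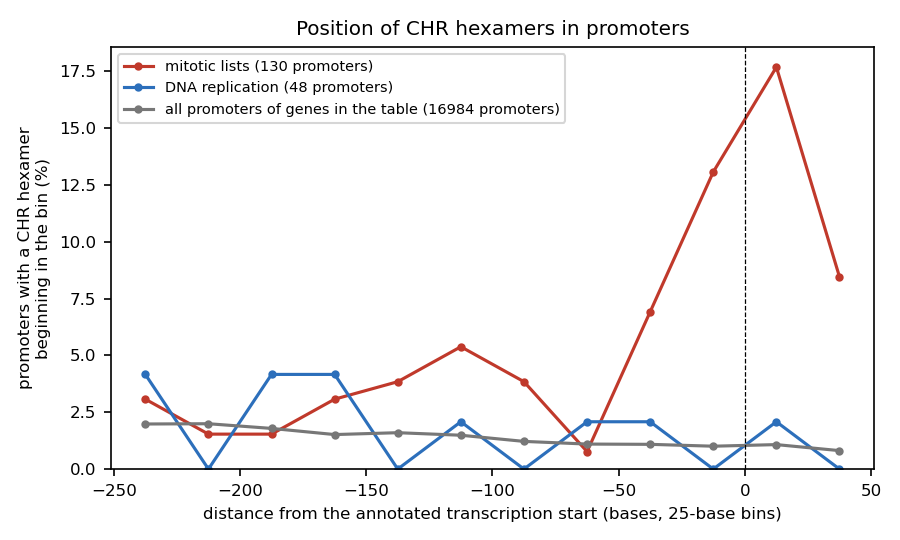
Share of promoters (vertical axis, percent) with CHR letters in each 25-base bin of distance from the start of transcription (horizontal axis, bases), for the mitotic lists, DNA replication genes and all genes in the table. The mitotic lists peak in the bin from the start to 25 bases after it, at 17.7%, where all promoters stand at 1.08%.

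Within the mitotic lists, genes with CHR letters near the start had the larger ratios to non-cycling cells. In set 1, 45 of 50 genes with the letters were 2-fold higher in members than in non-cycling cells, with a median log2 ratio of 2.29 (quartiles 1.53 and 2.86). Without them it was 35 of 58, with a median of 1.19 (0.57 and 1.77). In set 2 the counts were 40 of 43 and 30 of 54, with medians of 2.13 and 1.03. Over all genes with at least 20 UMIs and a RefSeq promoter, the rule genes left out, 20.4% of those with CHR letters and 1.61% of those without were 2-fold higher in set 1, and 17.4% and 1.81% in set 2. This last count holds the mitotic genes just described. Against S-phase-leaning cells the difference was smaller, with medians of 0.40 with the letters and 0.16 without them in set 1, and 0.14 and 0.028 in set 2, where 2 of 47 and 2 of 54 were 2-fold higher.

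DNA replication genes separated members from S-phase-leaning cells, partly by the rule itself. Summed over the list with the rule genes left out, their level was 1773 CPM in members, 3608 in S-phase-leaning and 787 in non-cycling cells of set 1, and 1479, 3904 and 549.9 in set 2. Members thus lay between the other groups. Against S-phase-leaning cells, 11 of 43 replication genes were 2-fold lower in members of set 1 and 25 of 39 in set 2, where 0.199% and 1.59% of all genes were. Lig1, the ligase that joins newly made DNA, stood at 55.1 and 36.7 CPM in members, 189.9 and 223 in S-phase-leaning and 31.8 and 12.2 in non-cycling cells. Cdc6, which loads the replicative helicase, was 4.04-fold (2.97 to 5.60) and 3.75-fold (1.82 to 8.48) lower in members than in S-phase-leaning cells. Its level in members was still above that of non-cycling cells, 15.9 and 11.5 against 1.96 and 0.787 CPM.

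Against S-phase-leaning cells, few genes outside the rule were higher in members. In set 1, 18 of 7785 genes (0.231%) were 2-fold higher and 19 (0.244%) lower, and in set 2 21 of 4081 (0.515%) and 55 (1.35%). In set 2 the majority turned when cells were thinned to 4000 UMIs, with 16 higher and 10 lower, and the counts were 28 and 45 without the cells with both sums at 0. Ccnb2 led set 1, 3.74-fold (3.21 to 4.38) higher, and was 4.01-fold (2.80 to 5.88) higher in set 2. Cdkn3, a phosphatase of cyclin-dependent kinases, stood at 67.0 and 42.4 CPM in members and 14.4 and 10.8 in S-phase-leaning cells. Arl6ip1, a membrane protein that shapes the endoplasmic reticulum, stood at 916 CPM (883 to 950.4) and 721 CPM (665 to 779) in members, 290.1 CPM (274 to 307) and 363 CPM (323 to 406) in S-phase-leaning and 169 CPM (159 to 179) and 248 CPM (239 to 256) in non-cycling cells. For these 3 genes the intervals of members and S-phase-leaning cells did not meet in either set. Nek2, a centrosome kinase, stood at 29.8 and 24.1 CPM against 6.93 and 4.78, and Cdc25b, a phosphatase that activates Cdk1, at 36.9 and 34.4 against 9.16 and 13.1. Aspm, a spindle-pole protein, stood at 71.6 and 44.7 against 25.5 and 22.7. Knstrn, a kinetochore-linked adaptor, stood at 77.4 and 61.9 against 22.8 and 33.5. These genes were named from the ranking of set 1. In set 2, Arl6ip1, Cdc25b, Aspm and Knstrn fell short of 2-fold on CPM + 10, and Cdkn3 and Nek2 were under the minimum of 50 UMIs. The largest ratios of set 2 were those of Tff1, Akap12, Ccnb2, Ctsl and Klf2, with 86.2% of the UMIs of Tff1 in 1 member. Ccl1, also among the largest ratios of set 1, had 33.7% of its UMIs in 1 member. By list, 4 of 18 kinases and cyclins, 3 of 17 spindle factors and 0 of 11 checkpoint genes were 2-fold higher than in S-phase-leaning cells of set 1, beside 0.199% of all genes. In set 2 the counts were 3 of 16, 1 of 15 and 0 of 10, beside 0.636%.

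Lower than in S-phase-leaning cells stood genes of the G1/S transition. Ccne2, an E-type cyclin, stood at 6.15 and 11.5 CPM in members, 43.8 and 69.3 in S-phase-leaning and 3.92 and 5.36 in non-cycling cells. E2f1, a transcription factor of S phase entry, stood at 11.7 and 9.17, 36.1 and 65.7, and 9.19 and 5.72. For both, members were nearer to non-cycling than to S-phase-leaning cells. Foxm1, a transcription factor of mitotic genes, stood instead at 27.5 and 27.5 CPM in members and 28.0 and 27.5 in S-phase-leaning cells, beside 0.452 and 0.644 in non-cycling cells. Of the cell cycle transcription factors, 4 of 18 and 2 of 13 were 2-fold higher than in non-cycling cells.

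Among brakes on the cycle, Cdkn2c (p18, an inhibitor of Cdk4 and Cdk6) was higher in members, 36.6 CPM (30.2 to 44.0) and 39.0 CPM (27.0 to 54.4) against 4.22 CPM (2.80 to 6.09) and 11.7 CPM (10.00 to 13.7) in non-cycling cells. Ccnd2, a D-type cyclin of G1, was lower, 109 CPM (97.5 to 121) and 147 CPM (122 to 174) against 221 CPM (209.6 to 232) and 263 CPM (254 to 271). Btg1, an antiproliferative gene of resting lymphocytes, stood at 670.1 and 3031 CPM against 1002 and 4259.9. Neither Ccnd2 nor Btg1 reached 2-fold on the scale of CPM + 10 in either set. Of 13 p53 targets, 0 were 2-fold higher and 0 lower in set 1, and likewise in set 2. Over all genes the shares were 2.71% and 2.7% higher and 0.348% and 0.427% lower, so a count of 0 does not set this list apart.

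Histone and chromatin genes were among the largest differences from non-cycling cells. Clustered histone genes summed to 5006 and 6545 CPM in members, 5061 and 6047 in S-phase-leaning and 821 and 1314 in non-cycling cells. Members thus lay close to the cells that lean to S phase. Reads of near-identical histone copies may be split between genes, so single histone genes are uncertain. Hist1h2bc, a histone H2B gene, differed from the sum in set 2, with 738 CPM (682 to 797) in members, 276 CPM (242 to 314) in S-phase-leaning and 222 CPM (215 to 230.3) in non-cycling cells. In set 1 it stood at 378, 258 and 216 CPM. H1f0, a linker histone of differentiated cells, was likewise highest in members of set 2, at 281 CPM (247 to 318) beside 98.0 CPM (77.9 to 122) in S-phase-leaning and 124 CPM (118 to 130.1) in non-cycling cells. Of the chromatin proteins of dividing cells, 11 of 15 in set 1 and 13 of 15 in set 2 were 2-fold higher than in non-cycling cells. Hmgb2, a DNA-bending protein, stood at 4259 and 3623 CPM in members, 2737 and 2825 in S-phase-leaning and 737 and 921 in non-cycling cells.

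Tubulins were higher as well, and genes of respiration and the proteasome by less. Tubb5, a beta tubulin, stood at 1579 CPM (1535 to 1624) and 1911 CPM (1820.3 to 2005) in members and 177 CPM (167 to 187) and 259.7 CPM (251 to 268) in non-cycling cells, and 4 of 9 tubulins in set 1 and 5 of 9 in set 2 were 2-fold higher. Stmn1 (stathmin), which loosens microtubules, stood at 1043 and 1209 CPM against 91.1 and 38.9. No gene of oxidative phosphorylation or of the proteasome reached 2-fold, yet 13 and 14 of 15 respiratory and 13 and 14 of 14 proteasome genes had log2 ratios above 0 in sets 1 and 2. Their medians were 0.26 and 0.61 for oxidative phosphorylation and 0.27 and 0.66 for the proteasome, beside 0.043 and 0.06 over all genes. Glycolysis genes had medians of 0.024 and 0.34, and the latter was -0.14 without cells above 2 times the median UMIs of their set. Ndufa4, a respiratory chain subunit, stood at 485 CPM in members and 273 in non-cycling cells of set 2. Beside non-cycling cells at least as deep as the lower quartile of the members, the medians in set 2 were 0.48 and 0.58, and without the cells above 2 times the median UMIs 0.35 and 0.49. S-phase-leaning cells stood at similar levels, with ratios of the sums of 0.984 (0.964 to 1.01) and 1.01 (0.971 to 1.06) for oxidative phosphorylation. For the proteasome the ratios of members to S-phase-leaning cells were 1.07 (1.04 to 1.10) and 1.02 (0.960 to 1.08), and for tubulins 1.36 and 1.06. In set 2, tubulins summed to 473 CPM in members with both sums at 0. They summed to 3140 CPM at a mitosis sum of 1 to 9 and 4966 at 10 or more, beside 3301 in S-phase-leaning cells.

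Members held the transcripts by which skin ILC2s, the type 2 ILCs, are known, at a summed level slightly below that of non-cycling cells. Over 13 markers the ratio of the sums was 0.904 (0.887 to 0.922) in set 1 and 0.958 (0.931 to 0.986) in set 2, with 5 and 3 of the 13 log2 ratios above 0. The order was not the same per cell. The median cell stood at 4101 CPM in members and 4297 in non-cycling cells of set 1, but at 5264 and 5094 in set 2. Of 13 ILC2 markers, 0 were 2-fold higher and 0 lower than in non-cycling cells of set 1, and 0 and 1 in set 2, where 0.348% and 0.427% of all genes were lower. Gata3, the transcription factor that ILC2s need, stood at 609 CPM (582 to 637) in members and 624 CPM (605 to 644) in non-cycling cells of set 1, and at 537 CPM (489.8 to 588) and 588 CPM (576 to 601) in set 2. The intervals overlap in both sets. Rora, an ILC2 transcription factor, stood at 1547 and 1759 CPM against 1811 and 1769, and Icos, a costimulatory receptor, at 1018 and 1411 against 932 and 1544. Il13, a type 2 cytokine, was 1.72-fold (1.59 to 1.86) higher in set 1 and 1.04-fold (0.927 to 1.17) in set 2. Calca, whose peptide CGRP acts on ILC2s, was 1.68-fold (1.59 to 1.79) lower in set 1 and 1.57-fold (1.26 to 1.98) in set 2, where 1 cell held 35.7% of its UMIs in members. Il1rl1, the interleukin-33 receptor, was the marker 2-fold lower in set 2, with 2 UMIs in members, and stood at 15.2 CPM against 21.7 in set 1.

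**Figure D5:**
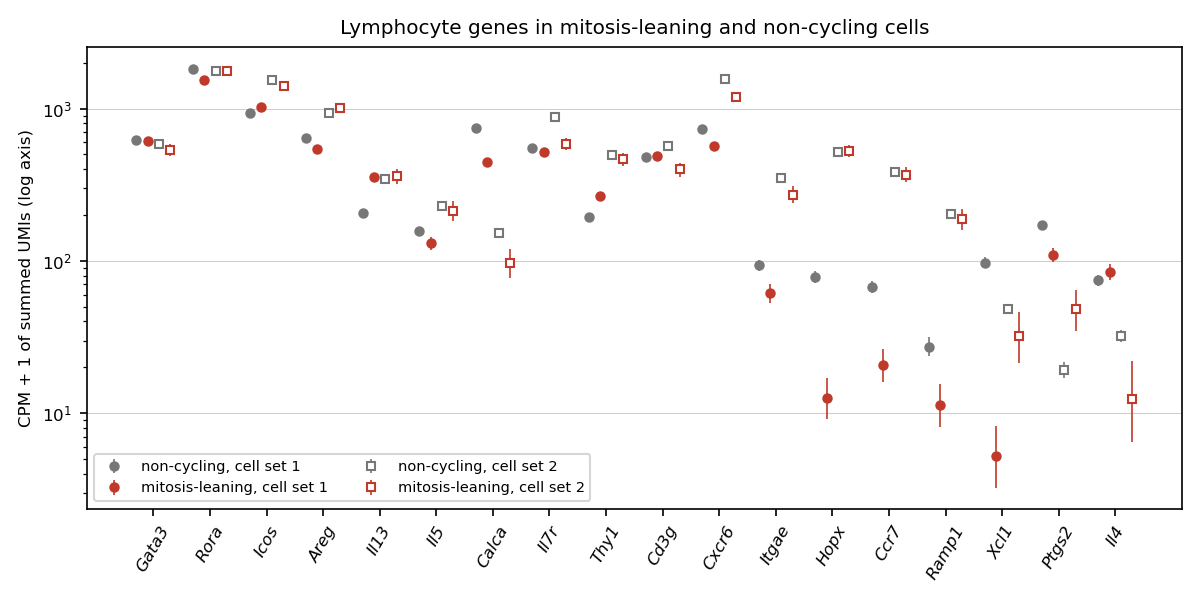
CPM + 1 (log axis) of lymphocyte genes in mitosis-leaning and non-cycling cells of each cell set, with bars for the 95% interval of counting error. Gata3 and Rora lie at similar levels in all 4 groups, Hopx and Xcl1 lie lower in members than in non-cycling cells of set 1, and Hopx, Ccr7 and Ramp1 lie higher in set 2.

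Shared ILC and sorting genes were detected in members at summed levels below those of non-cycling cells. The ratio of the sums was 0.950 (0.930 to 0.970) in set 1 and 0.777 (0.755 to 0.799) in set 2, with 3 and 0 of 9 log2 ratios above 0. Thy1, the sorting antigen, stood at 264 and 465 CPM in members and 192 and 499 in non-cycling cells. Il7r, the interleukin-7 receptor, stood at 518 and 587 against 551 and 886, and Ptprc, which encodes CD45, at 413 and 667 against 372 and 674. The sorted antigens were thus present in members of both sets. Of 9 shared ILC and sorting markers, none was 2-fold apart in either set, with median log2 ratios of -0.085 and -0.38. Of the ILC3 markers, 1 of 12 in each set was 2-fold lower and 0 higher. Il17f, a type 3 cytokine, stood at 7.45 and 9.17 CPM against 17.5 and 28.5. Il22 rests on few cells, since 1 cell held 65.9% of its UMIs in members of set 1.

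Several genes of natural killer and cytotoxic cells were lower in members of set 1 than in its non-cycling cells. Of the type 1 and cytotoxic effectors, 4 of 9 were 2-fold lower in set 1 and 0 of 7 in set 2, where 0.348% and 0.427% of all genes were. The median log2 ratios were -0.76 and -0.16. S-phase-leaning cells of set 1 were low as well, with sums of 82.9 CPM in members, 102 in S-phase-leaning and 281 in non-cycling cells. Between members and S-phase-leaning cells of set 1, 0 of 9 genes were 2-fold higher and 0 lower. Xcl1, a chemokine for dendritic cells, stood at 4.21 CPM (2.24 to 7.20) in members, 17.6 CPM (13.7 to 22.2) in S-phase-leaning and 96.5 CPM (89.2 to 104) in non-cycling cells of set 1. Much of this RNA lay in few cells, 1 cell holding 47.1% of the UMIs of Xcl1 in non-cycling cells of set 1 and 63.0% of those in members of set 2. A UMI of Xcl1 was found in 2.94% of members (1.99% thinned to 4000 UMIs) and 2.32% of non-cycling cells (1.75% thinned) of set 1. Tyrobp (DAP12), an adaptor of natural killer and myeloid cells, stood at 13.6 CPM (9.80 to 18.4) and 89.3 CPM (82.3 to 96.8) in set 1. Hopx, a homeodomain gene of resident lymphocytes, stood at 11.7 CPM (8.17 to 16.1) and 77.3 CPM (70.7 to 84.2) in set 1, and at 527 and 518 CPM in set 2. Members lay below non-cycling cells in set 1 and level with them in set 2, and the difference between the sets was not tested. Ifitm1, an interferon-induced gene, had 0 UMIs in members of set 1, so it was at least 17.7-fold lower than in non-cycling cells, of whose UMIs 1 cell held 31.6%, with the count of 0 taken as up to 3 UMIs over the group.

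Markers of other cell types stood at different levels in members, among them keratinocytes and erythroid cells, which a sort for CD45+, lineage-negative cells should remove. Natural killer cell markers summed to 11 UMIs in members of set 1 and 0 in those of set 2, beside 14.0 and 2.003 CPM in non-cycling cells, with Klrb1c, Ncr1, Eomes and Klre1 at 0 in both sets of members. Macrophage and monocyte markers summed to 7.13 and 2.29 CPM in members and 8.43 and 4.58 in non-cycling cells, with Csf1r, C1qa, C1qb and Adgre1 at 0 in members. Keratinocyte markers summed to 103 and 18.3 CPM in members and 150.3 and 24.0 in non-cycling cells, with none of the 6 at 0 in set 1 and Krt5, Krt1 and Krt15 at 0 in set 2. For erythroid markers the sums were 43.4 and 24.1 against 248 and 267 CPM, with Alas2 at 0 in members. The sums for natural killer, keratinocyte and erythroid markers were lower in members than in non-cycling cells of both sets, and those for macrophages rest on 22 and 2 UMIs. In set 2 the natural killer sums rest on 0 and 28 UMIs, with a ratio interval of 0 to 2.26. The keratinocyte ratio there was 0.765 (0.432 to 1.26), so in set 2 neither interval excludes equal levels. At least 3 erythroid UMIs were found in only 3.54% and 0.171% of non-cycling cells. Mast cell markers stood at 172 and 147 CPM in members and 172 and 157 in non-cycling cells, with Mrgprb2 at 0 in members of both sets and Cma1, Mcpt4, Tpsb2 and Cpa3 at 0 in those of set 2. For B cell markers the sums were 8.75 and 10.3 against 14.8 and 9.08 CPM, with Cd79a at 0 in members, and for dendritic and Langerhans cell markers 53.1 and 139.8 against 166 and 131. The part of such cells in the results was not tested. Markers of alpha beta T cells stood at 1557 and 1519 CPM in members and 1346 and 1659 in non-cycling cells. Cd3e, part of the T cell receptor complex, stood at only 3.24 and 2.29 CPM in members and 9.34 and 7.30 in non-cycling cells, whereas Cd3g stood at 490.1 and 398 CPM. Cd8b1 was at 0 in members of both sets. Gamma delta T cell markers summed to 78.4 and 219 CPM in members and 79.7 and 239 in non-cycling cells. Whether members include T cells was not tested.

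Members of set 2 held more RNA of several homing and residency genes than members of set 1, and so did the non-cycling cells. Set 2 over set 1, 188 of 6393 genes (2.94%) were 2-fold higher in members and 136 (2.13%) lower. The majority turned without cells above 2 times the median UMIs (203 higher and 217 lower), at 5 UMIs of Mki67, Top2a and Birc5 (172 and 177), thinned (99 and 107) and on CPM + 1 (285 and 337), and without the cells with both sums at 0 it was 170 and 157. Among non-cycling cells the counts were 218 (2.26%) and 147 (1.53%) of 9633. Ccr7, a receptor for migration to lymph nodes, stood at 19.8 CPM (15.1 to 25.4) and 368 CPM (329 to 410.3) in members of sets 1 and 2 and at 66.3 and 383 CPM in non-cycling cells. Ramp1, part of the receptor for CGRP, stood at 10.4 CPM (7.09 to 14.6) and 187 CPM (159 to 218) in members and 26.4 and 203 CPM in non-cycling cells. Cxcr4, a chemokine receptor, stood at 67.7 and 537 CPM in members and 72.4 and 511 in non-cycling cells. For these 3 genes, cycling and non-cycling cells thus differed between the sets in the same direction. Hopx was 45.2-fold (32.2 to 65.3) higher in members of set 2 and 6.71-fold (6.13 to 7.35) in its non-cycling cells. Homing and residency genes were 2-fold higher for 8 of 15 in members, where 2.8% of all genes with at least 20 UMIs were higher and 1.72% lower. In non-cycling cells 7 of 19 were, where 1.97% of all genes with at least 20 UMIs were higher and 1.33% lower.

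Lower in members of set 2 stood Hes1, a Notch target, with 277 CPM (258 to 296) in set 1 and 47.0 CPM (33.7 to 63.7) in set 2, beside 221 and 24.5 CPM in non-cycling cells. Il4, a type 2 cytokine, stood at 83.2 CPM (73.4 to 94.1) and 11.5 CPM (5.49 to 21.1) in members and 73.5 and 31.1 CPM in non-cycling cells. Calca, given above, was 4.62-fold (3.70 to 5.83) lower in members of set 2. Mitotic genes stood slightly lower in members of set 2. Of the mitotic kinases and cyclins 0 of 18, and of the spindle factors 0 of 17, were 2-fold higher, and 0 and 0 lower, where 2.8% and 1.72% of all genes were, with median log2 ratios of -0.28 and -0.34, beside -0.064 over all genes. Mitotic kinesins summed to 0.705 (0.634 to 0.781) of their level in set 1, with the cells with both sums at 0 included. By size of the mitosis sum, kinesins in sets 1 and 2 stood at 89.0 and 58.4 CPM at 0. At 1 to 9 they stood at 488 and 403 CPM, and at 10 or more at 797 and 745. Without the cells with both sums at 0 the medians of kinases and spindle factors were -0.077 and -0.10.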

How the data were processed

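The deposited table holds raw UMI counts per gene and cell, whole numbers made by the authors with Cell Ranger 3.1.0 and Seurat 4.1.0 on mm10, per the submitters' processing notes. The sources used here do not give the settings. Cell names end in a suffix that no label ties to an age, so the table was treated as 1 pooled sample described by suffix. Members, S-phase-leaning and non-cycling cells were found by the rule, UMIs were summed over each group, and log2 ratios were taken on CPM + 10 for genes with at least 50 UMIs over both groups (20 for members of a list). Intervals are exact Poisson for levels, exact binomial for ratios and Clopper-Pearson for shares, at 95%, and 3 UMIs were used as the limit for a count of 0. They cover counting error only.

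The 15 rule genes were left out of all counts of genes. Members and gene lists were chosen with earlier results of these data known. Named genes were the 10 largest and 10 smallest ratios of each comparison and up to 6 per list, leaving out ribosomal, mitochondrial, haemoglobin, antigen receptor, sex-linked and unnamed genes, with rule genes and markers beside them. Not every gene so picked is given. No doublet caller was run. Thinning to 4000 UMIs left out 3 members, 1 S-phase-leaning and 48 non-cycling cells of set 1 and 7, 2 and 985 of set 2. Python 3.11.15, numpy 2.4.6, scipy 1.17.1 and pandas 2.3.3 were used, and TMM factors came from edgeR 4.0.16 as another scaling only. The ratios and intervals were tested on simulated data, drawn as independent Poisson counts for each group. That simulation left out RNA concentrated in few cells, so it bears on counting error only.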

Additional observations from a re-analysis of the deposited data

Results flagged for a closer look

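H2-Aa and H2-Ab1, the chains of the MHC class II molecule that presents antigen to helper T cells, had ratios of opposite sign in the cell sets. The log2 ratio of mitosis-leaning to non-cycling cells was -1.34 for H2-Aa in set 1 and 1.30 in set 2. For H2-Ab1 it was -1.11 and 1.21. The difference between the sets was not tested. In set 2 the values rest on 19 and 18 UMIs in members, of which 1 cell held 52.6% and 22.2%. Without cells above 2 times the median UMIs, H2-Aa in set 2 was -0.034. Dendritic and Langerhans cell markers summed to 53.1 and 139.8 CPM in members of sets 1 and 2 and 166 and 131 in non-cycling cells, with Cd207, Itgax, Flt3 and Xcr1 at 0 in members of both sets.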

How the results depend on the processing

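The share of kept cells in cell set 2 that were members, 2.68%, was 1.85% at 5 UMIs of Mki67, Top2a and Birc5, 1.43% with a margin of 2 times between the sums, 1.70% without cells above 2 times the median UMIs and 1.995% without members with both sums at 0. In set 1 it was 9.30% with the margin and 12.2% thinned. Of cycling cells, 40.6% of set 1 and 40.3% of set 2 leaned to mitosis with the margin, and 54.4% and 49.6% thinned, beside 45.2% and 53.1%, so the higher share of set 2 did not hold under either.

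Against non-cycling cells, 557 genes of set 1 and 932 of set 2 were 2-fold apart on CPM + 1 (402 and 498 higher), and 568 of set 2 when thinned (330 higher), beside 292 and 272. Without cells above 2 times the median UMIs, 215 were higher and 80 lower in set 2. Against S-phase-leaning cells, where 37 and 76 were apart, the counts were 108 in set 1 with the margin, 140 and 129 on CPM + 1, and in set 2 26 thinned (16 higher), 147 at 20 UMIs and 183 with no minimum. Between members of the sets, where 324 were apart, they were 206 thinned and 622 on CPM + 1, with more lower than higher genes in both. Scaled by TMM, 327 genes were higher and 106 lower in non-cycling cells of set 2 than of set 1, beside 218 and 147.

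For the ILC2 markers, the median of the log2 ratios stayed below 0 under every alternative run. In set 1, -0.23 in the main setting, it was -0.14 with at most 5% mitochondrial UMIs, -0.18 at 5 UMIs, -0.16 with the margin, -0.14 thinned, -0.12 without the deepest cells, -0.011 as a mean over cells, -0.28 by TMM and -0.35 beside non-cycling cells at least as deep as the members' lower quartile. In set 2, -0.11 in the main setting, it was -0.21, -0.20, -0.16, -0.16, -0.27 and -0.16 under the same settings from 5 UMIs on, the mean over cells left out, and -0.16 without members with both sums at 0. H2-Aa in set 2 changed sign without cells above 2 times the median UMIs, to -0.034 against non-cycling cells, -0.057 against S-phase-leaning cells and -0.18 against members of set 1. Leaving out members with both sums at 0, and comparing with deeper non-cycling cells, were chosen after seeing the data. The cause of these shifts was not tested. No paired analysis was possible because each cell set is 1 group of cells with no replicate and no label that pairs them.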
